A study of Mus musculus with 35 samples.

Results

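The vascular endothelial growth factor (VEGF) family was examined in the amygdala of mice through 10 genes taken by symbol from the 52636 Ensembl genes counted in each library. They are 5 ligands (Vegfa, Vegfb, Vegfc, Vegfd and Pgf, placental growth factor) and 5 receptors or co-receptors (Flt1, Kdr, Flt4, Nrp1 and Nrp2). All 10 symbols matched an Ensembl gene and all 10 passed the minimum of 10 counts in each comparison. The expression of 1 ligand, Vegfd, separated the anterior from the posterior portion of the basolateral amygdala in both mouse strains without overlap. The share of all genes that do so was not counted. None of the 10 genes passed the adjusted test between strains or housing conditions.

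VEGF ligands are secreted dimers that act on receptor tyrosine kinases, which in adult tissue sit mainly on endothelial cells. VEGF-A drives the growth and permeability of blood vessels through the receptor encoded by Kdr, while the product of Flt1 binds VEGF-A, VEGF-B and placental growth factor and can hold them as a decoy. VEGF-C and VEGF-D are made as precursors that are cleaved, and they act on the product of Flt4, the receptor of lymphatic vessels. The neuropilins encoded by Nrp1 and Nrp2 have no kinase of their own and also serve as receptors for class 3 semaphorins, which guide axons. In the brain, neurons make VEGF-D as well, and it is known there for maintaining dendrite shape.

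The mice were female adults of the inbred strain C57BL/6J or of B6D2F1N, a hybrid of the C57BL and DBA backgrounds, and carried no engineered allele. They lived in standard cages or in an enriched environment with daily playground access, and all of them, controls included, had been trained from postnatal day 70 for a cognitive judgment bias test and put through it before the brains were taken, with the housing conditions starting on day 77. Cells of the basolateral amygdala were cut out of frozen sections by laser capture, and mRNA libraries made with a low-input kit were sequenced. The 35 libraries came from 19 mice. Of the anterior portion there were 4 C57BL/6J standard, 2 C57BL/6J enriched, 5 B6D2F1N standard and 5 B6D2F1N enriched libraries, and of the posterior portion 4, 4, 5 and 6 in the same order. Both portions were sequenced in 16 mice (6 C57BL/6J and 10 B6D2F1N). The reads counted on genes numbered 16938534 to 27352623 in a library. Levels are given as CPM, the counts of a gene scaled to a common library total and corrected by the trimmed mean of M-values (TMM), and ± denotes the SD over mice unless SE is written.

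Several libraries stood apart and are named where a result rests on them. Rspo2, a known marker of anterior basolateral neurons, was higher in the anterior library of all 16 mice, but 2 anterior B6D2F1N libraries (standard mouse 3 at 33.5 CPM and enriched mouse 1 at 33.1 CPM) lay below the 119 to 310 CPM of the other anterior libraries. Markers of the choroid plexus, the tissue that secretes cerebrospinal fluid, summed to 6.51 to 924 CPM in anterior and 117 to 14153 CPM in posterior libraries, and the highest posterior sums were those of B6D2F1N enriched mice 1 and 3. The sum of 924 CPM was that of the anterior library of B6D2F1N enriched mouse 1, and the other anterior libraries held at most 52.7 CPM. Dcn, which encodes decorin, was at 173 to 1715 CPM in 15 posterior libraries, and at 8.93 to 55.3 CPM in the other 4, those of B6D2F1N standard mice 2 to 5, against 11.1 to 46.1 CPM in anterior ones. Xist, the transcript of the silenced X chromosome, had 0 reads in both libraries of B6D2F1N standard mouse 1 although only female mice were used, and Vegfd, which is X-linked, lay inside the range of the other libraries there. In addition, the study's methods give the slice range nearer the front of the brain to the portion named posterior. The portions are called here as the labels name them.

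The promoters of Vegfd, Flt1 and Nrp2 are shown because Vegfd and Nrp2 passed the portion test and Flt1 came near its threshold, and because the Vegfd promoter is poorer in G and C than those of its relatives. Promoter windows of RefSeq on GRCm38.p6 run from 250 bases before to 50 after a gene's start and were found for all 10 genes. The Vegfd window holds 42% G or C, and 14.1% of the 32851 promoters in the table hold less. All other windows of the family hold between 59.3 and 75.3%. The motifs TATAAA (box of core promoters), TGACGTCA (response element to cyclic AMP), GGGCGG (the Sp1 box) and ACGTG (core of the hypoxia response element) were searched on both strands, and 13.6%, 1.79%, 35.7% and 19.6% of all promoters hold them. GGGCGG was found in the window of every gene of the family but Vegfd, though not in 1 of the 2 windows of Pgf. TATAAA was found in the windows of Vegfd and Flt1, TGACGTCA in that of Flt1, and ACGTG in 1 of 2 windows of Vegfa. The bases before the start of both RefSeq and GENCODE transcripts are printed 5′ to 3′, with matches in capitals. They are chrX:164373272-164373377 on the plus strand for Vegfd, where the TATAAA lies past the printed bases, chr5:147726012-147726261 on the minus strand for Flt1 and chr1:62703067-62703284 on the plus strand for Nrp2.
Vegfd: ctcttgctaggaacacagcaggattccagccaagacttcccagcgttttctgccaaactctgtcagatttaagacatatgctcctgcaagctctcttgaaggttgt
Flt1: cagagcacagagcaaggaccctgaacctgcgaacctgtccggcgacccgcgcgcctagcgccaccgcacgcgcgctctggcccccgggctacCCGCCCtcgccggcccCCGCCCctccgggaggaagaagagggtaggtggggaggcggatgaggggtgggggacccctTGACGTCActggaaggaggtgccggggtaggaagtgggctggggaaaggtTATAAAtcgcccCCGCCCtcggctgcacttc
Nrp2: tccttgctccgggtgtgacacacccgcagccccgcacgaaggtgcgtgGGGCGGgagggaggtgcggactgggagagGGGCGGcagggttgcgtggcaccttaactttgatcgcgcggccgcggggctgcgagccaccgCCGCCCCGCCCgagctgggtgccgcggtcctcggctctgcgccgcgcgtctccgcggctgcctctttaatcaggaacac
A match is a run of letters and no proof that a factor binds there, and its absence says nothing about that factor.

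Vegfd was lower in the posterior amygdala of every mouse. The gene (ENSMUSG00000031380) lies on the plus strand of chromosome X, from 164373378 to 164402650 in GRCm38. In the anterior libraries of C57BL/6J mice, Vegfd stood at 69.3, 89.6, 80.0 and 84.0 CPM in standard mice 1 to 4 and at 58.5 and 55.4 CPM in enriched mice 1 and 3. The posterior libraries of the same mice held 5.04, 5.27, 5.30 and 3.58 CPM and then 8.70 and 5.49 CPM. Each mouse thus had 6.72 to 23.5 times as much Vegfd in its anterior as in its posterior library, and the 2 posterior libraries without an anterior partner (enriched mice 2 and 4) were low too, at 11.4 and 6.29 CPM.

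Anterior B6D2F1N libraries were more spread. Vegfd was at 96.8, 98.2, 32.7, 93.3 and 58.5 CPM in standard mice 1 to 5, and at 14.5, 32.9, 54.4, 157 and 38.4 CPM in enriched mice 1, 2, 3, 4 and 6. Their posterior libraries were at 9.45, 5.05, 10.5, 1.62 and 3.60 CPM and at 3.79, 6.13, 3.43, 2.31 and 4.08 CPM, and that of enriched mouse 5 was at 5.04 CPM. Anterior levels exceeded posterior ones by 3.12 times in standard mouse 3 up to 67.9 times in enriched mouse 4. Across both strains the lowest anterior library (14.5 CPM, 287 reads) was still above the highest posterior one (11.4 CPM, 235 reads). That anterior library, of B6D2F1N enriched mouse 1, also had the least Rspo2 and the most choroid plexus RNA of the anterior libraries. The ranges of the other genes of the family overlapped between portions, and how many of all genes separate the portions as fully was not counted.

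**Figure D1:**
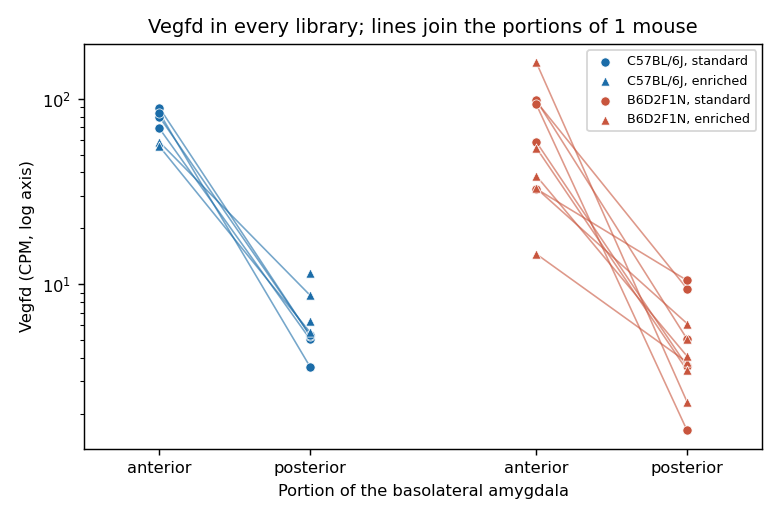
Vegfd in CPM (log axis) in each of the 35 libraries by portion, with C57BL/6J mice in blue, B6D2F1N mice in red, circles for standard and triangles for enriched housing; lines join both portions of 1 mouse. All 16 lines fall, from 14.5 to 157 CPM in the anterior to 1.62 to 11.4 CPM in the posterior portion.

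In the paired fit (edgeR's quasi-likelihood F test with the mouse as a block, Benjamini-Hochberg adjustment over all genes tested), Vegfd changed by a log2 fold change of -3.73 (SE 0.236, adjusted p = 4.81e-08) in C57BL/6J mice, from 72.8 ± 14.0 to 5.56 ± 1.69 CPM (n = 6). In B6D2F1N mice the log2 fold change was -3.63 (SE 0.393, adjusted p = 4.06e-05), from 67.7 ± 43.2 to 4.99 ± 2.91 CPM (n = 10). By p-value Vegfd was in place 5 of 25751 genes in the former and in place 18 of 27761 in the latter strain. Of the 10 genes of the family, 2 passed the threshold of 0.05 in C57BL/6J mice, where 3.64% of all genes did, and 1 passed in B6D2F1N mice, where 4.00% did. The portion effect on Vegfd did not differ detectably between strains (interaction 0.10, SE 0.508, edgeR adjusted p = 1).

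The difference was of similar size without the libraries that stood apart. Without B6D2F1N enriched mice 1 and 3, which had the most choroid plexus RNA, the log2 fold change of Vegfd was -3.79 (SE 0.432). Without the mice with little anterior Rspo2 it was -4.07 (SE 0.366), and without the 4 mice with low posterior Dcn it was -3.40 (SE 0.420). These left-out mice were picked after the data were seen, and Rspo2 and Dcn themselves differ between portions.

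Ppp1r1b, a known marker of posterior basolateral neurons, did not pass in either strain (0.20, SE 0.444, and 0.33, SE 0.346). Within a portion, Vegfd and Rspo2 were compared over libraries on the log2 scale. Over the 16 anterior libraries Pearson's r was 0.77 (permutation p = 0.00138, adjusted p = 0.00276 over the 2 portions) and Spearman's rho was 0.68 (permutation p = 0.00438). Without the 2 libraries farthest from the median Rspo2, which are the 2 B6D2F1N libraries at about 33 CPM, r was 0.47 (n = 14, permutation p = 0.0924), so that the relation rests on them. Over the 19 posterior libraries r was 0.51 (permutation p = 0.0479, adjusted p = 0.0479) and rho was 0.18 (permutation p = 0.463). It fell to -0.10 (n = 17, permutation p = 0.699) without the farthest 2 libraries, which include the posterior library of B6D2F1N standard mouse 4 with 1 read of Rspo2. The portions form separate clusters, and no r over both is given.

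**Figure D2:**
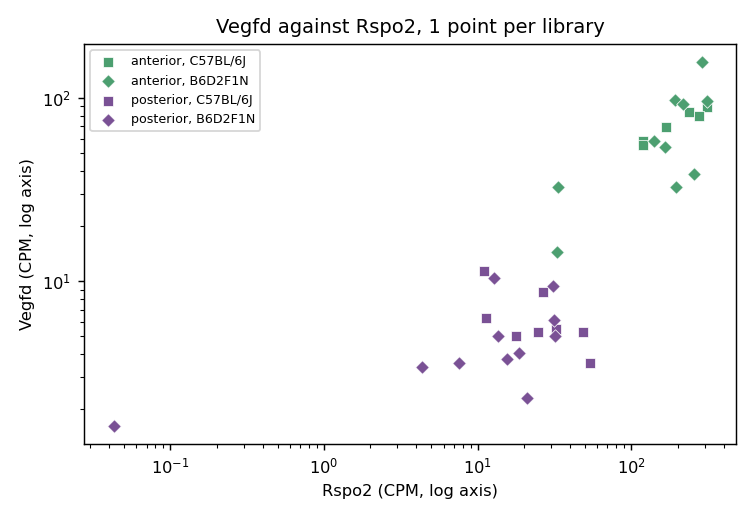
Vegfd against Rspo2 in CPM (both log axes), 1 point per library, green for anterior and purple for posterior, squares for C57BL/6J and diamonds for B6D2F1N. Anterior libraries lie at upper right, the 2 anterior points near 33 CPM of Rspo2 are also the lowest in Vegfd among anterior libraries (14.5 and 32.7 CPM), and posterior points show Vegfd at 1.62 to 11.4 CPM over the whole range of Rspo2.

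Some neuronal markers moved with the portion as well. Of 6 excitatory markers 1 was higher and 2 were lower in the posterior portion of each strain. Of 6 inhibitory markers 2 were lower in C57BL/6J and 1 in B6D2F1N mice. Of 6 markers of striatal projection neurons 1 was lower in C57BL/6J and 0 in B6D2F1N mice. Slc17a7, the vesicular glutamate transporter of cortical-type neurons, fell by 1.22 (SE 0.228, edgeR adjusted p = 0.00352) in C57BL/6J and by 1.32 (SE 0.243, edgeR adjusted p = 0.00334) in B6D2F1N mice on the log2 scale, and Slc17a6, the transporter of subcortical glutamate neurons, rose by 1.58 (SE 0.370) and 1.38 (SE 0.245). In C57BL/6J enriched mice 1 and 3 the anterior level of Slc17a7 was only 1.02 and 1.29 times the posterior one, against 2.90 to 3.79 times in standard mice. For Slc17a6 these ratios were 1.035 and 1.049 in the enriched mice. In a bulk library fewer cells of a type and less RNA per cell cannot be told apart, and the part of cell make-up in the Vegfd difference was not tested. All 5 choroid plexus markers were higher in the posterior portion of B6D2F1N mice and 3 of 5 in C57BL/6J mice, with a median log2 fold change of 6.16 and 4.10. Of 5 ependymal markers 4 were higher in B6D2F1N and 2 in C57BL/6J mice, with medians of 4.16 and 3.54. Over all genes, 4.00% passed in B6D2F1N and 3.64% in C57BL/6J mice. Of 8 astrocyte markers 4 were higher in C57BL/6J mice, while 1 was higher and 1 lower in B6D2F1N mice, and no marker of microglia, oligodendrocytes or their precursors passed. None of the marker genes in the lists used was at 0 in every library of a portion.

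None of the other ligands passed the test between portions. Vegfb, a ligand of the Flt1 receptor, was at 12.7 ± 3.53 CPM in the anterior (n = 16) and 11.6 ± 4.18 CPM in the posterior libraries (n = 19), with a paired log2 fold change of -0.29 (SE 0.279) in C57BL/6J and -0.20 (SE 0.232) in B6D2F1N mice. Pgf was at 6.94 ± 2.63 and 7.68 ± 2.81 CPM. It was higher in the posterior library of 5 of 6 C57BL/6J mice (0.56, SE 0.327, edgeR adjusted p = 0.517) and of 5 of 10 B6D2F1N mice (-0.07, SE 0.303). Vegfc, the closest relative of Vegfd and the main lymphatic growth factor, was at 2.89 ± 2.51 CPM in anterior and 2.95 ± 1.74 CPM in posterior libraries. Its values varied widely, from 0 reads in the anterior library of B6D2F1N enriched mouse 2, where 3 reads would be 0.134 CPM, to 10.7 CPM in that of enriched mouse 6. The portion effect on Vegfc was 0.83 (SE 0.624) and -0.19 (SE 0.788), so that a change of 1 log2 unit could not have been told from its spread. Vegfa, the founding member of the family, had only 5 to 45 reads per library, or 0.223 to 2.22 CPM, with portion effects of -0.36 (SE 0.678) and 0.15 (SE 0.567). Intervals and floors from read numbers cover counting error only.

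**Figure D3:**
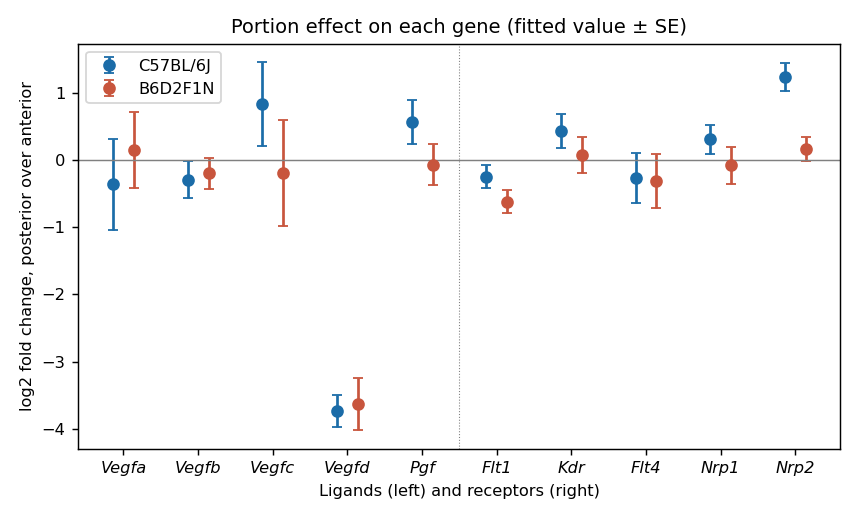
Log2 fold change of posterior over anterior for the 10 genes in C57BL/6J (blue, 6 mice) and B6D2F1N mice (red, 10 mice), fitted values with SE bars; ligands are left and receptors right of the dotted line. Vegfd lies at -3.73 and -3.63, Nrp2 at 1.24 and 0.17, and the other values lie between -0.62 and 0.83.

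Among the receptors, Nrp2 rose in the posterior portion of C57BL/6J mice. Nrp2 (ENSMUSG00000025969), the co-receptor of VEGF-C and VEGF-D and of class 3 semaphorins, lies on the plus strand of chromosome 1 from 62703285 to 62818695. In C57BL/6J mice the anterior libraries held 31.0, 50.6, 34.0 and 37.1 CPM in standard mice 1 to 4 and 34.2 and 70.5 CPM in enriched mice 1 and 3, and the posterior libraries 72.9, 96.1, 87.5, 153, 115 and 76.5 CPM in the same order. All 6 mice had more Nrp2 in the posterior library, and the lowest posterior value exceeded the highest anterior one by a small margin. How many of all genes separate these 6 pairs as fully was not counted. The log2 fold change was 1.24 (SE 0.211, edgeR adjusted p = 0.00165). The unpaired posterior library of enriched mouse 2 was lower, at 46.5 CPM, and lay within the anterior range. That of enriched mouse 4 held 81.1 CPM and lay above that range.

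In B6D2F1N mice, Nrp2 was higher in the posterior library of 5 of 10 mice, and the log2 fold change was 0.17 (SE 0.177, edgeR adjusted p = 0.698). Its anterior libraries held 59.4, 62.3, 47.9, 40.7 and 42.1 CPM in standard mice 1 to 5, and 31.4, 77.0, 87.6, 61.9 and 48.0 CPM in enriched mice 1, 2, 3, 4 and 6. Posterior values were 126, 33.7, 42.8, 43.9 and 41.7 CPM in the standard mice and 70.5, 62.6, 83.7, 65.0 and 77.9 CPM in the enriched mice. The unpaired posterior library of enriched mouse 5 held 103 CPM. The 4 posterior libraries below 45 CPM are those with low Dcn. Without these 4 mice the log2 fold change of Nrp2 was 0.48 (SE 0.213, edgeR adjusted p = 0.327). Since they also held the lowest posterior Nrp2 of the strain, leaving them out favours a rise, and no conclusion is drawn from it. The test of the strain difference itself gave an interaction (B6D2F1N minus C57BL/6J) of -1.08 (SE 0.299), with an unadjusted p of 0.00127 in the fit across all genes, in place 20 of 29437 genes, and an edgeR adjusted p of 1. A strain difference in the portion effect on Nrp2 is therefore not shown. Of all genes 0% passed for portion by strain, with 871 below an unadjusted 0.05.

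Flt1 came close to the threshold in B6D2F1N mice. Flt1 (ENSMUSG00000029648), which encodes the VEGF receptor that also occurs as a soluble decoy, lies on the minus strand of chromosome 5 from 147561604 to 147726011. In B6D2F1N mice, anterior and posterior levels were 133 and 92.4, 109 and 62.6, 67.6 and 59.3, 93.9 and 30.5, and 69.1 and 57.1 CPM in standard mice 1 to 5. In enriched mice 1, 2, 3, 4 and 6 they were 55.3 and 57.3, 59.7 and 68.4, 99.97 and 59.6, 140.3 and 56.1, and 97.5 and 48.0 CPM. Flt1 was thus lower in the posterior library of 8 of 10 mice, with overlapping ranges and a log2 fold change of -0.62 (SE 0.172, edgeR adjusted p = 0.0503). DESeq2 gave -0.60 (SE 0.180, adjusted p = 0.0152), and with that tool 2 of the 10 genes passed in B6D2F1N mice, where 7.18% of all genes did, and 2 of 10 in C57BL/6J mice, where 5.96% did. Without the mouse as a block edgeR gave -0.64 (SE 0.186, adjusted p = 0.0483). Leaving out enriched mouse 1, enriched mouse 2 or standard mouse 3 also took Flt1 past the threshold, with edgeR adjusted p-values of 0.0434, 0.0267 and 0.0490. Over 19 alternatives Flt1 passed in 8, with adjusted p-values (edgeR or DESeq2) from 0.0152 to 0.236. In C57BL/6J mice the levels were 88.1 ± 13.8 and 76.7 ± 25.7 CPM, with a log2 fold change of -0.25 (SE 0.172, edgeR adjusted p = 0.623).

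**Figure D4:**
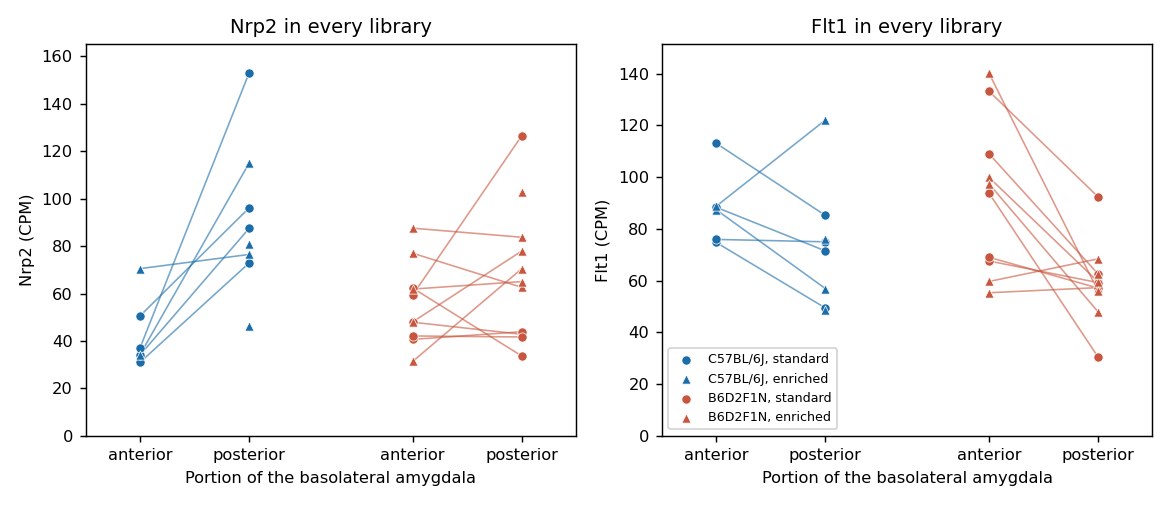
Nrp2 (left) and Flt1 (right) in CPM in each of the 35 libraries by portion, with lines joining both portions of 1 mouse; blue marks C57BL/6J, red B6D2F1N, circles standard and triangles enriched housing. Nrp2 rises in all 6 C57BL/6J pairs and in 5 of 10 B6D2F1N pairs, and Flt1 falls in 5 of 6 and 8 of 10.

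Some vessel markers were lower in the posterior portion of that strain. Of 12 endothelial markers 2 were lower in the posterior portion of B6D2F1N mice, namely Ptprb, the vascular receptor phosphatase, by 0.71 (SE 0.139, edgeR adjusted p = 0.00549) and Abcb1a, the drug efflux pump of the blood-brain barrier, by 0.67 (SE 0.174, edgeR adjusted p = 0.0341) on the log2 scale. Of 8 pericyte markers 2 were lower, Vtn by 0.60 (SE 0.157) and Rgs5 by 0.55 (SE 0.147). Over all genes, 4.00% passed in this strain. The summed endothelial markers ranged from 599 to 1306 CPM in anterior and from 541 to 966 CPM in posterior B6D2F1N libraries, and the summed pericyte markers from 400.2 to 962 and from 342 to 666 CPM. No endothelial or pericyte marker passed in C57BL/6J mice. The part of vessel content in the Flt1 values was not tested.

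Kdr, Flt4 and Nrp1 did not pass the same test. Kdr, the main signalling receptor for VEGF-A, was at 12.7 ± 4.85 CPM in anterior (n = 16) and 14.0 ± 4.39 CPM in posterior libraries (n = 19), with paired log2 fold changes of 0.43 (SE 0.250) in C57BL/6J and 0.08 (SE 0.267) in B6D2F1N mice. Flt4, the receptor of VEGF-C and VEGF-D, was at 5.48 ± 2.59 and 4.15 ± 1.65 CPM, with -0.27 (SE 0.370) and -0.31 (SE 0.396). Of 4 lymphatic vessel markers none was higher in either strain, and 1 (Reln, which neurons also make) was lower in the posterior portion of C57BL/6J mice, by 1.20 (SE 0.286, edgeR adjusted p = 0.0214). Over all genes, 3.64% passed in C57BL/6J mice. Nrp1, the co-receptor of VEGF-A and of semaphorin 3A, was at 68.5 ± 20.2 and 76.2 ± 35.9 CPM. Its posterior values ran from 16.9 CPM in B6D2F1N standard mouse 4 to 182 CPM in C57BL/6J enriched mouse 1, and the portion effects were 0.31 (SE 0.218) and -0.08 (SE 0.278).

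To compare levels of different genes, CPM was divided by the kilobases covered by the exons of a gene. This takes reads to be spread evenly along transcripts, which was not tested. The order of genes of unlike length is therefore approximate. In the anterior portion Vegfd was the highest of the family at 28.9 ± 14.3 CPM per kilobase (n = 16), followed by Vegfb at 7.92 ± 2.2, Nrp1 at 7.00 ± 2.06, Flt1 at 6.73 ± 1.81, Nrp2 at 4.30 ± 1.46, Pgf at 2.39 ± 0.907, Kdr at 1.41 ± 0.537, Vegfc at 1.18 ± 1.03, Flt4 at 0.665 ± 0.314 and Vegfa at 0.333 ± 0.125. The gap between Vegfd and the next gene was larger than 1 SD of either, while in order Vegfb, Nrp1 and Flt1 lay within 1 SD of their neighbours, as did Kdr, Vegfc and Flt4 among themselves. In the posterior portion Vegfd held place 6 at 2.32 ± 1.11 CPM per kilobase (n = 19), within 1 SD of Pgf above it (2.65 ± 0.968) and of Kdr below it (1.55 ± 0.486). Nrp1 (7.79 ± 3.67), Vegfb (7.20 ± 2.61), Nrp2 (6.58 ± 2.64) and Flt1 (4.83 ± 1.46) were the 4 highest there and lay within 1 SD of each other in order, and Flt1 stood above Pgf by more than 1 SD. Dividing by the longest transcript in place of all exons left Vegfd in place 1 in the anterior and in place 6 in the posterior portion, and raised Nrp1 from place 3 to place 2 in the anterior portion. The anterior gap between Vegfd (34.0 ± 16.9) and Nrp1 (18.8 ± 5.54) was then smaller than 1 SD of Vegfd, and Vegfb went from place 2 to place 4 in both portions.

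**Figure D5:**
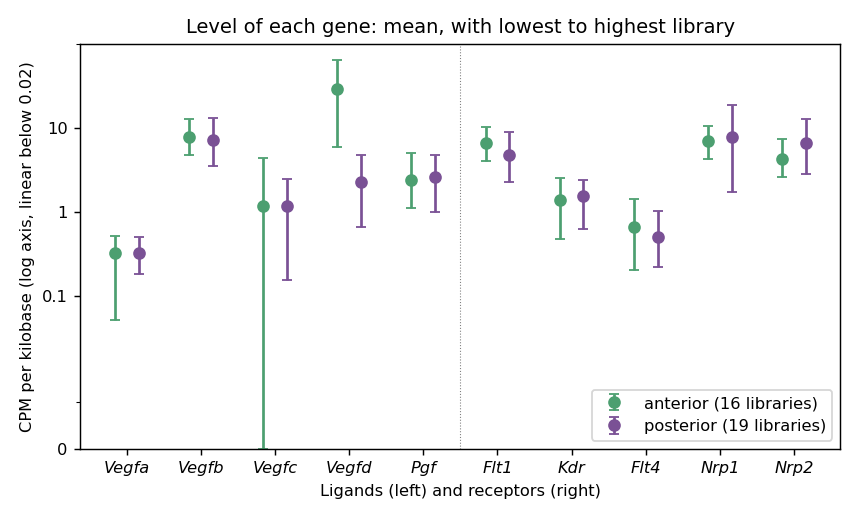
Mean level of each gene in CPM per kilobase of exon (log axis, linear below 0.02) in 16 anterior (green) and 19 posterior libraries (purple), with bars from the lowest to the highest library. Vegfd drops from 28.9 in the anterior to 2.32 in the posterior portion, while the means of the other 9 genes lie near each other in the portions.

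Relatives and partners of the family were followed through lists. The list of class 3 semaphorins and plexins includes other ligands of the neuropilins and signalling partners, though not every gene in it is one. In the posterior portion of each strain 4 of its 12 genes were lower and 0 higher. Of all genes 3.64% passed in C57BL/6J and 4.00% in B6D2F1N mice. The list median was -0.43 in C57BL/6J and -0.38 in B6D2F1N mice against 0.01 and 0.15 over all genes. Sema3e fell by 3.45 (SE 0.291, edgeR adjusted p = 1.39e-06) and by 2.19 (SE 0.274, edgeR adjusted p = 0.00013), from 154 ± 36.8 to 15.9 ± 8.97 CPM and from 153 ± 86.4 to 33.7 ± 19.1 CPM. Sema3a, the classical repellent ligand of Nrp1, fell by 3.40 (SE 0.338) and by 1.98 (SE 0.242). Plxna4, a signalling partner of the neuropilins, fell by 1.15 (SE 0.233) and by 1.02 (SE 0.182). Plxna2 passed in C57BL/6J mice only (-0.63, SE 0.163, edgeR adjusted p = 0.0357, against -0.57, SE 0.158, edgeR adjusted p = 0.0505 in B6D2F1N), and Sema3c in B6D2F1N mice only (-1.0, SE 0.194, edgeR adjusted p = 0.00499, against -0.20, SE 0.279). In the test of the strain difference itself 0 of the 12 genes passed. Sema3f, the main semaphorin ligand of Nrp2, had log2 fold changes of 0.05 (SE 1.15) and 1.81 (SE 0.535, edgeR adjusted p = 0.0677).

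Of 20 genes that relay VEGF signals in the receiving cell, 1 passed in C57BL/6J (3.64% of all genes) and 2 in B6D2F1N mice (4.00% of all genes). Prkcb, a protein kinase C that neurons also use, fell by 1.30 (SE 0.213) in C57BL/6J and by 1.46 (SE 0.178) in B6D2F1N mice, and with Ptprb in B6D2F1N mice these were the calls of the list, whose medians were 0.08 and 0.03. Of 6 genes of the platelet-derived growth factor system, Pdgfb, the ligand that holds pericytes to vessels, fell by 0.85 (SE 0.207, edgeR adjusted p = 0.0238) in B6D2F1N mice and had -0.71 (SE 0.198, edgeR adjusted p = 0.0574) in C57BL/6J mice. None of the angiopoietin and Tie genes passed (4 tested in C57BL/6J, 5 in B6D2F1N), none of 7 genes of VEGF-C and VEGF-D processing and none of 7 genes of hypoxia sensing. Ccbe1, a cofactor in the cleavage of VEGF-C, had log2 fold changes of 2.09 (SE 0.923) and 2.69 (SE 0.835, edgeR adjusted p = 0.0854).

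No gene of the family passed the test between strains. B6D2F1N was compared with C57BL/6J within each housing and portion, and 0 of 10 genes passed in standard anterior libraries, where 0.370% of all genes did, in standard posterior (0.373%), enriched anterior (0.0639%) and enriched posterior libraries (0.394%). At an unadjusted 0.05, 4 values of the family would have passed over the 4 comparisons, all with an edgeR adjusted p of 0.468 or more. Over all genes 9.00, 10.3, 4.33 and 9.11% were below it in the same order. Vegfb had a log2 fold change of 0.60 (SE 0.277) in standard anterior libraries, at 15.3 ± 4.16 CPM in B6D2F1N against 10.1 ± 1.55 CPM in C57BL/6J mice. In standard posterior libraries Kdr and Nrp2 had log2 fold changes of -0.73 (SE 0.299) and -0.82 (SE 0.359), and Vegfd was at -0.94 (SE 0.383) in enriched posterior libraries, with 4.13 ± 1.32 against 7.97 ± 2.66 CPM. Leaving out B6D2F1N standard mouse 1, whose posterior Nrp2 of 126 CPM stands far above 33.7 to 43.9 CPM in the other 4, turned Nrp2 in standard posterior libraries to -1.32 (SE 0.243, edgeR adjusted p = 0.0249). These other 4 are the libraries with low Dcn, at 8.93 to 55.3 CPM. The C57BL/6J libraries they were compared with held 902 to 1715 CPM of Dcn. Strain and Dcn level cannot be told apart in that fit, and no strain effect on Nrp2 is concluded. In standard anterior libraries Vegfd had a log2 fold change of -0.09 (SE 0.263), at 80.7 ± 8.55 CPM in C57BL/6J (n = 4) and 75.9 ± 29.2 CPM in B6D2F1N mice (n = 5).

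Housing gave no call in the family either. Enriched was compared with standard housing in each strain and portion, and 0 of 10 genes passed in anterior C57BL/6J (0% of all genes), posterior C57BL/6J (0.0163%), anterior B6D2F1N (0%) and posterior B6D2F1N libraries (0%). Of the other genes in the lists, Mbp, a myelin gene, rose by 1.97 (SE 0.271, edgeR adjusted p = 0.0366) with enriched housing in posterior C57BL/6J libraries. Over all genes, 1418, 2515, 1553 and 1716 were below an unadjusted 0.05, and DESeq2 called 100, 319, 8 and 13. Vegfd in anterior C57BL/6J libraries was at 55.4 and 58.5 CPM in the 2 enriched mice, below the 69.3 to 89.6 CPM of the 4 standard mice (-0.52, SE 0.223, edgeR adjusted p = 0.789). In posterior C57BL/6J libraries it was at 7.97 ± 2.66 CPM in enriched against 4.80 ± 0.821 CPM in standard mice (0.73, SE 0.393, edgeR adjusted p = 0.520). Each enriched value there (5.49 to 11.4 CPM) lay above each standard one (3.58 to 5.30 CPM). How many of all genes separate groups this small as fully was not counted. By p-value Vegfd was in place 3905 of 24526 genes in that comparison, and a housing effect on it is not shown. B6D2F1N mice had 59.5 ± 56.4 against 75.9 ± 29.2 CPM in anterior and 4.13 ± 1.32 against 6.04 ± 3.80 CPM in posterior libraries, with log2 fold changes of -0.37 (SE 0.476) and -0.57 (SE 0.453). Kdr in posterior B6D2F1N libraries was at 14.8 ± 2.26 CPM in enriched and 9.69 ± 3.09 CPM in standard mice (0.60, SE 0.258, edgeR adjusted p = 0.752). The portion effect on Vegfd did not differ detectably by housing (interaction 0.62, SE 0.481, edgeR adjusted p = 1), in a fit in which 0% of all genes passed and 888 were below an unadjusted 0.05.

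The genes most like Vegfd over the 35 libraries were, by Pearson's r of log2 CPM among 16021 genes, Nptx2 (0.95), Bdnf (0.93), Rtn4 (0.92), Kcna6 (0.91) and Slc36a1 (0.91). Nptx2, a secreted synaptic pentraxin, and Bdnf, brain-derived neurotrophic factor, are known as genes that rise with neuronal activity. Since the libraries fall into 2 portions and share mice, r was also taken within a portion, where Nptx2 had 0.73 over 16 anterior and 0.71 over 19 posterior libraries, Bdnf 0.82 and 0.59, Kcna6 0.84 and 0.58, Slc36a1 0.74 and 0.46, and Rtn4 0.73 and 0.29. The genes most like Kdr reached lower values (Gm38043 0.64, Stard9 0.62, Gm42568 0.61, Gm16701 0.61 and Grhl2 0.60) and none of them is an endothelial marker of the list used. These values are descriptions. The genes were picked by r over the same libraries, so their r within a portion is no separate check. How high r would run among as many unrelated genes was not tested.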

How the data were processed

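The authors sequenced laser-captured amygdala mRNA in reads of 72 bases from 1 end. Per the labels and the submitters' processing notes, reads were trimmed with Trimmomatic 0.38, aligned to GRCm38 with HISAT2 2.1.0 and counted per Ensembl gene with HTSeq 0.11.2, and the deposited values are raw read counts per gene. The annotation release and strand setting are not given in the sources used here. Reads on no gene (13.7 to 26.4% of those tallied), on more than 1 gene (3.06 to 3.74%) or without a unique alignment (6.23 to 10.9%) were left out. No 2 of the 35 libraries held identical counts, and each group holds separate mice.

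Symbols and positions came from GENCODE M21 (52489 of 52636 identifiers found). In R 4.3.3, genes with at least 10 counts over the libraries of a comparison were scaled by TMM and tested with edgeR 4.0.16 (quasi-likelihood F test, two-sided, Benjamini-Hochberg adjustment, threshold 0.05). An SE given for edgeR is the size of the log2 fold change divided by the square root of its F statistic. The SE of DESeq2 is the tool's own. The portion fit used the mice with both portions and had the mouse as its block. Strains were compared within housing and portion, housing within strain and portion. The labels' mouse names give the pairing. As a check, the residuals of both libraries of a mouse, taken against group averages, had a median r of 0.05 over 16022 genes (-0.11 to 0.22 over 16 mice). With only 4 mice over 0.1, these values are low and do not by themselves bear out the pairing, which rests on the labels. Log2 CPM carry a prior count of 2. At most 0.109% of the 72-base windows of a gene in the family matched another gene.

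Alternatives were DESeq2 1.42.0, its size factors, filterByExpr, no minimum, no block, all libraries of a strain, 1 fit for 4 groups, the longest transcript, library totals, every mouse omitted once, and, added after seeing the data, 3 sets of mice left out of the B6D2F1N portion fit. The tests were first run on simulated counts. These held no differences between mice in the mean of a gene, so they cannot check the block. No conclusion is drawn from them. Genes named outside the family were up to 4 per list and portion comparison past the threshold by p-value, those past it by strain or housing, the 5 most like Vegfd and Kdr, and Xist, Rspo2 and Ppp1r1b. Family members and lists were chosen with earlier results of these data known, and Sema3f and Ccbe1 were named outside the rule after their values were seen.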

Additional observations from a re-analysis of the deposited data

Results flagged for a closer look

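Among 70 groups of 4 to 6 libraries, 5 values stood apart from the rest of their group by Dixon's criterion, which chance alone meets in about 1 in 20 groups. Vegfd was at 157 CPM in the anterior library of B6D2F1N enriched mouse 4, against 14.5 to 54.4 CPM in the other 4 libraries of the group, and at 3.58 CPM in the posterior library of C57BL/6J standard mouse 4, against 5.04 to 5.30 CPM. Flt4 was at 9.45 CPM in the anterior library of B6D2F1N standard mouse 4, against 3.98 to 5.25 CPM. In the posterior library of B6D2F1N standard mouse 1, Flt4 was at 7.04 CPM, against 2.94 to 4.09 CPM, and Nrp2 at 126 CPM, against 33.7 to 43.9 CPM. This is the mouse without Xist reads, and its posterior library held 1640 CPM of Dcn, against 8.93 to 55.3 CPM in the other 4 of the group.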

How the results depend on the processing

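Vegfd passed between portions in all 12 alternatives in C57BL/6J and all 19 in B6D2F1N mice, and Nrp2 in all 12 in C57BL/6J mice. The causes of the changes given here were not tested. With DESeq2, 1535 and 1994 genes passed between portions in C57BL/6J and B6D2F1N mice, 254, 392, 137 and 342 between strains (standard anterior, standard posterior, enriched anterior, enriched posterior), 100, 319, 8 and 13 between housing conditions (C57BL/6J anterior and posterior, B6D2F1N anterior and posterior) and 1 for portion by housing. With no minimum count, 2 genes passed for portion by strain, 57 for strain in enriched anterior, and 274 and 112 for housing in anterior and posterior C57BL/6J libraries. With 4 groups in 1 fit, the enriched anterior strain count was 44 and the posterior C57BL/6J housing count 0. Without the replicate block, 706 genes passed between portions in C57BL/6J and 1172 in B6D2F1N mice (745 and 1440 with unpaired libraries added). In B6D2F1N mice 2 of the 10 genes, Vegfd and Flt1, passed with DESeq2, with no minimum, in both fits without the block and without the mice with least anterior Rspo2, and 631 genes passed without the mice with most choroid plexus RNA. Without the block the log2 fold changes that turned sign were those of Vegfa (-0.02), Kdr (-0.03) and Nrp1 (0.04) in B6D2F1N mice, and with unpaired libraries added those of Vegfb in C57BL/6J (0.02) and Nrp1 in B6D2F1N mice (0.05). Pgf turned to 0.06 without the mice with most choroid plexus RNA, and Pgf, Vegfc, Flt4 and Nrp1 turned to 0.03, 0.05, 0.04 and 0.09 without the mice with least posterior Dcn. None of these passed the test. These left-out mice were chosen after seeing the data.

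Omitting 1 mouse at a time, portion counts ran from 602 to 1070 genes in C57BL/6J (602 without standard mouse 4) and from 770 to 1220 in B6D2F1N mice, with 1 to 2 genes of the family in the latter. Strain counts ran from 59 to 166 in standard posterior libraries (166, with 1 gene of the family, Nrp2, against 0 otherwise, without B6D2F1N standard mouse 1) and from 1 to 15 in enriched anterior ones (1 without C57BL/6J enriched mouse 1). All B6D2F1N libraries left in the fit that gave 166 are those with low posterior Dcn. Housing counts ran from 0 to 172 in posterior C57BL/6J (172 without enriched mouse 3) and from 0 to 10 in posterior B6D2F1N libraries (10 without standard mouse 1). Values that turned sign were, between portions in B6D2F1N mice, Vegfa (-0.05 to 0.32), Vegfc (-0.59 to 0.20), Pgf (-0.22 to 0.06), Kdr (-0.04 to 0.25) and Nrp1 (-0.24 to 0.15), the interaction of portion and strain for Vegfd (-0.13 to 0.35), that of portion and housing for Nrp2 (-0.13 to 0.31), and the strain effect on Vegfd in standard anterior (-0.20 to 0.09) and enriched anterior libraries (-0.70 to 0.31). Where 1 enriched C57BL/6J anterior library was left, it was assumed to vary like the other group. Lengths from the longest transcript moved the level per kilobase of 5 genes by more than their spread. Vegfa, with 5 to 45 reads a library, is the gene most limited by depth.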
